A study of Mus musculus with 12 samples.

Results

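The genes described here are 10 genes of cholesterol efflux and of control by the liver X receptors (LXRs), chosen by symbol from the 25655 genes counted in whole mouse retina. They are the efflux transporters Abca1, Abcg1 and Abcg4, the lipid acceptor Apoe, the receptors Nr1h2 and Nr1h3, the LXR targets Mylip, Lpcat3 and Scd2, and the oxysterol-forming enzyme Cyp46a1. The study treated injured eyes of C57BL/6 mice, labelled 8 to 10 weeks old (C57BL/6J aged 8 weeks in the treatment protocol), and took the retina for total RNA sequencing 2 days after the injury. Every animal used, controls included, had the optic nerve of the left eye crushed and a single injection into the vitreous, so no group is an uninjured or uninjected retina. The injection held PBS (the control), fluvastatin, or MBV, which are matrix-bound nanovesicles taken from the extracellular matrix of pig urinary bladder. The group that received both agents is not analysed here. Each of the 3 groups described has 3 libraries. The study refers to the libraries of a group as biological replicates. The sources do not say whether a library is 1 retina or a pool, or that each came from a separate animal, so p-values measure only the spread between these libraries, which may be technical.

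Cholesterol leaves cells through ABC transporters, which pass it to lipoprotein particles carrying apolipoprotein E. Oxysterols, which are oxidised forms of cholesterol, activate the LXRs, and active LXRs raise transcription of the transporters and of lipid-modifying enzymes. Statins such as fluvastatin block an early step of cholesterol synthesis, and a fall in cell sterol activates SREBP2, the transcription factor that raises synthesis and uptake genes. In the retina, Müller glia are a main source of apolipoprotein E, and neurons use cholesterol it carries.

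Total counts per library ran from 21349516 to 30992040. The markers of rods, bipolar, amacrine and ganglion cells and Müller glia were all detected, and no gene of the 13 marker lists was at 0 in every library of a group. The library numbers in the labels fall in separate sets, with PBS in one set and fluvastatin and MBV in the other. In both comparisons with PBS the library set cannot be told apart from the treatment, no value within a set can be had, and both comparisons share the same PBS libraries. The comparison of MBV with fluvastatin lies within one set.

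All 10 members were detected in every library. Levels are given in CPM, the counts of a gene scaled to a common library total. Exon lengths were taken from the GENCODE annotation, whose gene models can differ from those counted. The upper end of Apoe is at position 19434947 in GENCODE and at 19433113 in the counted gene. For Lpcat3 these ends are at 124684440 and 124681381. Values per kilobase, and the order of genes by them, therefore depend on the models used. In CPM per kilobase of GENCODE exon, averaged over the 9 libraries, Scd2 was highest at 73.2 and Nr1h3 lowest at 0.470. Between them, Apoe was at 56.7, Abcg1 at 21.1, Abcg4 at 19.0, Nr1h2 at 11.99 and Mylip at 10.2. Abca1 was at 7.30, Cyp46a1 at 2.71 and Lpcat3 at 1.61. The order therefore put the lipid enzyme Scd2 and the acceptor Apoe first, and the receptor Nr1h2, which is expressed in most tissues, well above Nr1h3, the receptor known for high expression in liver and macrophages. Over the 9 libraries the ranges overlapped between Scd2 and Apoe, between Abcg1 and Abcg4, between Nr1h2 and Mylip and between Mylip and Abca1. The order of those neighbours is not separated by their spread. With GENCODE lengths every other pair of neighbours was apart, and lengths of the counted models were not tried.

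**Figure D1:**
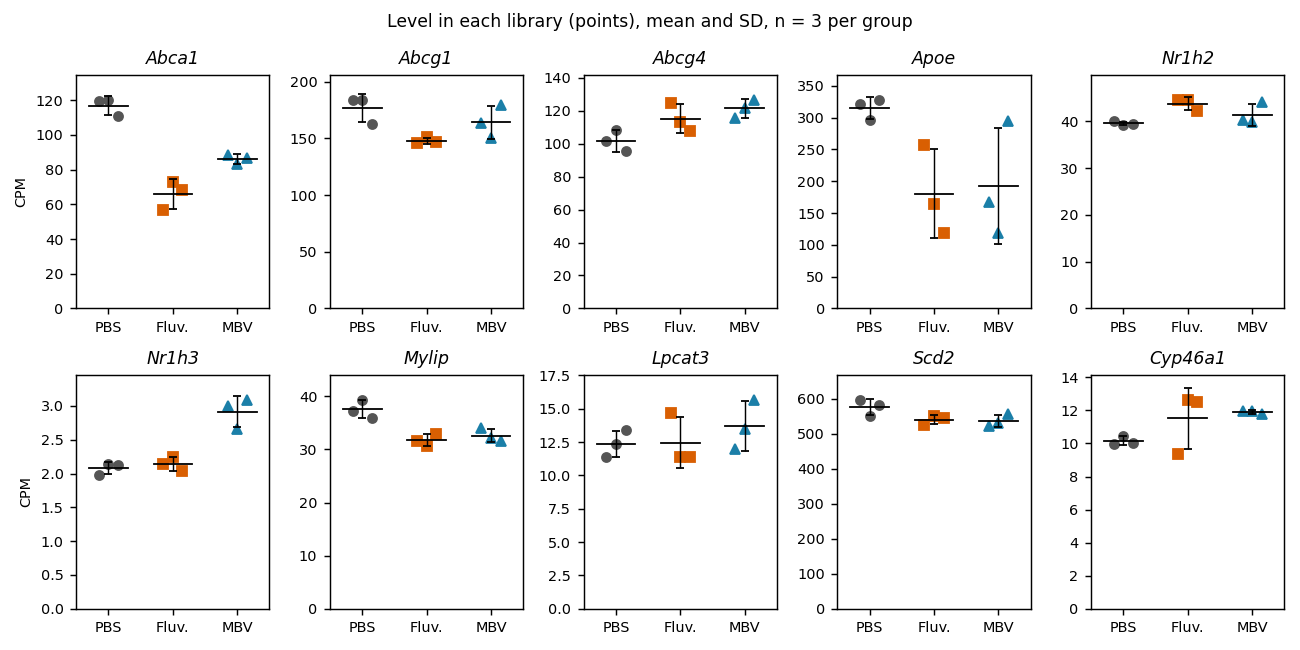
Level of each of the 10 members in CPM, with library totals adjusted by TMM scaling (vertical axis, starting at 0), in PBS, fluvastatin and MBV retinas. Each library is 1 point and a bar marks the mean of 3 libraries. Abca1 separates the 3 groups, with PBS from 110.7 to 120.4, MBV from 83.2 to 88.7 and fluvastatin from 56.5 to 73.0 CPM, while Apoe spreads widely in both treated groups.

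The first comparison asks how the efflux and LXR genes stood in fluvastatin-treated against PBS retinas. Abca1, Abcg1, Apoe and Mylip were lower with fluvastatin, and no member was called higher. Among the transporters the change was uneven, with Abca1 1.77-fold lower, Abcg1 lower by a smaller amount, and the neuronal transporter Abcg4 not called. At a false discovery rate (FDR, adjusted by Benjamini-Hochberg) under 0.05 in the quasi-likelihood test of edgeR, 4 of 10 members were called, all lower, beside 25.0% of the 15129 genes tested, 12.3% higher and 12.7% lower. The libraries of the groups did not overlap for 5 members, 4 lower and 1 higher, beside 43.3% of all genes tested, 22.2% lower and 21.1% higher. The median log2 fold change of the members was -0.04 beside -0.00 over all genes tested. Without PBS replicate 1 the count was 1, Abca1, without PBS replicate 2 or without fluvastatin replicate 2 it was 2, and without fluvastatin replicate 1 it was 5. Calls over all genes moved in the same fits. They numbered 3784 with no library left out, 1678 without PBS replicate 1 and 4361 without fluvastatin replicate 1.

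Abca1 encodes the transporter that loads cholesterol and phospholipid onto lipid-poor apolipoproteins. It stood at 119.4, 120.4 and 110.7 CPM in PBS retinas and at 56.5, 73.0 and 68.2 CPM with fluvastatin. Every fluvastatin library was below every PBS library. Its log2 fold change was -0.83 (SE 0.0878, 95% interval -1.03 to -0.63) with an FDR of 0.00162 in edgeR's quasi-likelihood test, and the gene ranked 75 of 15129 by p. Leaving out any 1 library kept the log2 fold change between -0.91 and -0.73 and the FDR at or under 0.0141.

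Abcg1, which moves cholesterol to lipoprotein particles that already carry lipid, stood at 183.5, 184.1 and 162.7 CPM in PBS retinas and at 145.7, 150.8 and 147.1 CPM with fluvastatin. The fluvastatin libraries were all lower and close together. The log2 fold change was -0.26 (SE 0.0544, edgeR FDR 0.0112), and without PBS replicate 1 the FDR was 0.0628. Abcg4, a related transporter of neurons, stood at 101.4, 108.2 and 95.3 CPM in PBS retinas and at 124.8, 113.0 and 107.7 CPM with fluvastatin. The groups overlapped, and the log2 fold change of 0.18 (95% interval 0.02 to 0.33, edgeR FDR 0.0847) did not pass.

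Apoe, the main lipid acceptor of neural tissue, stood at 320.7, 296.5 and 328.4 CPM in PBS retinas and at 257.2, 164.6 and 119.3 CPM with fluvastatin. All fluvastatin libraries were below the PBS libraries, and they spread over a range much wider than that of the controls. Apoe had a log2 fold change of -0.81 (SE 0.223, 95% interval -1.31 to -0.30, edgeR FDR 0.0305). The call was lost without any 1 of the PBS libraries or without fluvastatin replicate 2, where the FDR ran from 0.0626 to 0.106, and in DESeq2 and a fit of all 9 libraries, where it was 0.0529 and 0.0897. In bulk tissue, fewer cells of a type and less RNA per cell cannot be told apart.

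The receptors differed little. Nr1h2, which encodes LXR beta, stood at 39.97, 39.30 and 39.32 CPM in PBS retinas and at 44.6, 44.5 and 42.1 CPM with fluvastatin. The groups did not overlap, but the log2 fold change of 0.15 (95% interval 0.04 to 0.25) had an edgeR FDR of 0.0513. Nr1h3, which encodes LXR alpha, stood at 1.98, 2.15 and 2.12 CPM in PBS retinas and at 2.15, 2.24 and 2.04 CPM with fluvastatin, with overlapping groups and a log2 fold change of 0.04 (95% interval -0.32 to 0.41). Nr1h3 rests on 48 to 82 counts per library over the 9 libraries.

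Among the targets, Mylip, which encodes a ubiquitin ligase induced by LXRs, stood at 37.3, 39.3 and 36.0 CPM in PBS retinas and at 31.5, 30.7 and 32.9 CPM with fluvastatin. Every fluvastatin library was lower. The log2 fold change was -0.24 (SE 0.0559, edgeR FDR 0.0154), and the call was lost without PBS replicate 1, PBS replicate 2 or fluvastatin replicate 2.

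Scd2, a desaturase that makes monounsaturated fatty acids, stood at 596.6, 550.7 and 581.6 CPM in PBS retinas and at 525.8, 551.1 and 544.1 CPM with fluvastatin. Lpcat3, an enzyme that places polyunsaturated chains in phospholipids, stood at 11.4, 12.3 and 13.4 CPM in PBS retinas and at 14.7, 11.4 and 11.4 CPM with fluvastatin. The groups overlapped for both genes. For Scd2 the log2 fold change of -0.09 (95% interval -0.19 to 0.01, edgeR FDR 0.147) did not pass, nor did that of 0.01 for Lpcat3 (95% interval -0.26 to 0.28, edgeR FDR 0.958). Cyp46a1, the neuronal hydroxylase that forms an oxysterol able to leave the brain, had a log2 fold change of 0.18 (95% interval -0.10 to 0.45, edgeR FDR 0.301), with fluvastatin libraries at 9.37, 12.6 and 12.5 CPM beside 9.98, 10.46 and 10.04 CPM in PBS. Without fluvastatin replicate 1 the FDR of Cyp46a1 was 0.0258, and without fluvastatin replicate 2 it was 0.619.

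**Figure D2:**
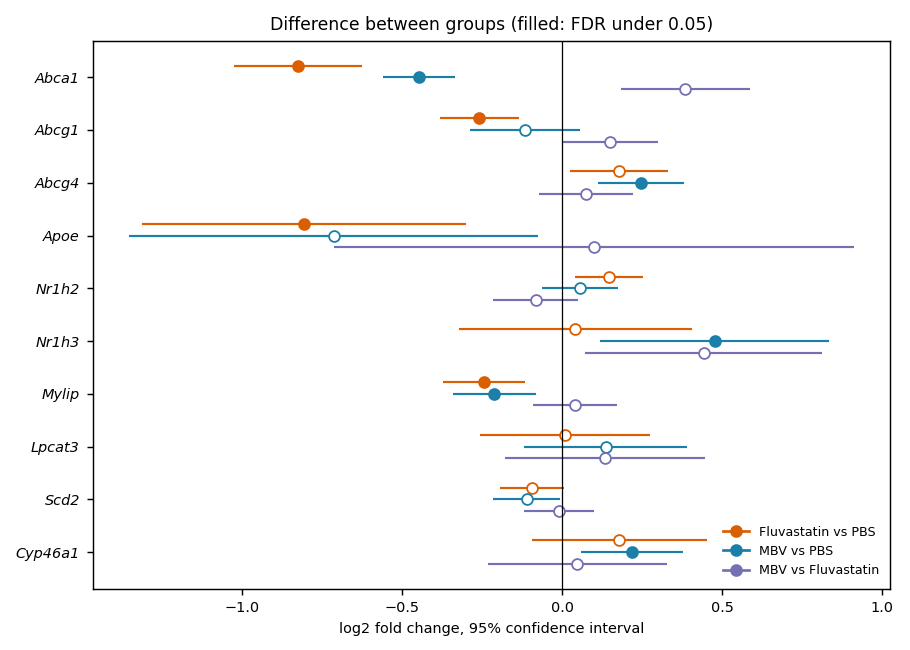
Log2 fold change of each of the 10 members (horizontal axis) in fluvastatin against PBS, MBV against PBS and MBV against fluvastatin, with 95% intervals from edgeR. Abca1 is at -0.83 and -0.45 against PBS and at 0.39 between the treatments, and the intervals of Apoe are the widest.

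The second comparison asks the same of MBV-treated retinas. Abca1 and Mylip were lower with MBV, while Abcg4, Cyp46a1 and Nr1h3 were higher. The fall in Abca1 was 1.37-fold, and that in Mylip was smaller. In edgeR's quasi-likelihood test 5 of 10 members were called, 2 lower and 3 higher, beside 33.7% of the 15193 genes tested, 17.5% lower and 16.1% higher. Libraries did not overlap for 6 members, 3 in each direction, beside 49.0% of all genes tested, 24.6% lower and 24.4% higher. The median log2 fold change was -0.03 beside 0.005 over all genes. Without PBS replicate 1 the count was 1, Abca1, without PBS replicate 2 or MBV replicate 2 it was 2, without PBS replicate 3 or MBV replicate 1 it was 3, and without MBV replicate 3 it was 5. Calls over all genes numbered 5116 with no library left out, 2744 without PBS replicate 1 and 5629 without MBV replicate 3. DESeq2 called 3 members.

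Abca1 stood at 88.7, 83.2 and 86.4 CPM with MBV, below all PBS libraries (110.7 to 120.4 CPM). The log2 fold change was -0.45 (SE 0.0488, 95% interval -0.56 to -0.34, edgeR FDR 0.00112). Leaving out any 1 library kept it between -0.49 and -0.42, with the FDR at or under 0.0103. Abcg1 stood at 163.4, 150.1 and 179.0 CPM with MBV and overlapped PBS, with a log2 fold change of -0.12 (95% interval -0.29 to 0.06).

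Abcg4 stood at 115.6, 121.8 and 126.7 CPM with MBV, above all PBS libraries (95.3 to 108.2 CPM). Abcg4 had a log2 fold change of 0.25 (SE 0.0587, edgeR FDR 0.0157), and without PBS replicate 1 the FDR was 0.0634. Apoe stood at 166.9, 118.1 and 294.7 CPM with MBV. Replicate 3 came close to the lowest PBS library while the other libraries were far below it. The log2 fold change of -0.71 (95% interval -1.36 to -0.07) had an edgeR FDR of 0.0809, and without MBV replicate 3 it was -1.15 with an FDR of 0.00046.

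Nr1h3 stood at 3.00, 2.65 and 3.09 CPM with MBV, above all PBS libraries (1.98 to 2.15 CPM). Its log2 fold change was 0.48 (SE 0.155, edgeR FDR 0.0470), which lost the call when any 1 of the 6 libraries was left out, in DESeq2 (FDR 0.1245), with the looser filter of 1 count in 1 library (0.0657) and with the replicate number as a block (0.0853). Nr1h2 stood at 40.2, 39.8 and 44.0 CPM and overlapped PBS, with a log2 fold change of 0.06.

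Mylip stood at 34.0, 32.2 and 31.5 CPM with MBV, all below PBS, with a log2 fold change of -0.21 (SE 0.0567, edgeR FDR 0.0243). Its call was lost without PBS replicate 1, PBS replicate 2 or MBV replicate 2, and with library totals in place of TMM scaling (FDR 0.0506). Cyp46a1 stood at 11.96, 11.98 and 11.76 CPM with MBV, above PBS at 9.98, 10.46 and 10.04 CPM. The log2 fold change was 0.22 (SE 0.0688, edgeR FDR 0.0421), and leaving out any 1 library raised the FDR above 0.05, as did DESeq2, the looser filter, the block and the fit of 9 libraries (FDR 0.0599 to 0.152). Scd2 stood at 523.0, 531.3 and 556.2 CPM and Lpcat3 at 11.96, 13.4 and 15.7 CPM with MBV, both overlapping PBS. The log2 fold changes of Scd2 (-0.11, 95% interval -0.22 to -0.01, edgeR FDR 0.0957) and Lpcat3 (0.14, 95% interval -0.12 to 0.39, edgeR FDR 0.369) did not pass. Without MBV replicate 3 the FDR of Scd2 was 0.0425.

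The third comparison set MBV against fluvastatin within 1 library set. Abca1 and Nr1h3 were the members whose libraries did not overlap, both with the higher values in MBV, beside 9.47% of the 15045 genes tested with MBV higher, 9.15% with MBV lower and 18.6% in either direction. In edgeR's quasi-likelihood test 0 of 10 members were called, beside 0.0332% of genes tested, or 5 genes (0.00665% higher with MBV and 0.0266% lower). Of the members, 3 had an unadjusted p under 0.05, and DESeq2 called 1, Abca1. For Abca1 the log2 fold change was 0.39 (SE 0.0875, 95% interval 0.18 to 0.59), with an unadjusted p of 0.00214 and an FDR of 0.228 in edgeR and an FDR of 0.0169 in DESeq2. For Nr1h3 it was 0.44 (95% interval 0.07 to 0.81, edgeR FDR 0.355), and for Abcg1 0.15 (95% interval 0.00 to 0.30, edgeR FDR 0.394). Apoe had a log2 fold change of 0.10 with an interval from -0.71 to 0.91, which is too wide to tell the treatments apart. The remaining members, Abcg4, Nr1h2, Mylip, Lpcat3, Scd2 and Cyp46a1, had log2 fold changes between -0.08 and 0.13.

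Other genes of LXR control and efflux, listed apart from the members, gave 37 genes, of which 33, 33 and 32 were tested in the 3 comparisons. Against PBS, fluvastatin had 5 of them higher and 6 lower, beside 25.0% of all genes tested called in either direction, and MBV 6 higher and 5 lower, beside 33.7%. Neither count is far from that background. In MBV against fluvastatin none was called in edgeR, 6 had an unadjusted p under 0.05, and DESeq2 called 3. The medians of the log2 fold changes were 0.02, 0.04 and 0.02. Without PBS replicate 1 the genes of this list called with fluvastatin numbered 4, without fluvastatin replicate 2 or 3 they numbered 6 and 7, and without fluvastatin replicate 1 they numbered 17. Over all genes, the fits without PBS replicate 1 and without fluvastatin replicate 1 called 1678 and 4361. With MBV the genes of this list numbered 6 without PBS replicate 1 or 3 and 7 without MBV replicate 2. Over all genes, 2744 were called with MBV without PBS replicate 1.

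Srebf1, an LXR target that drives fatty acid synthesis, stood at 123.1, 121.9 and 122.8 CPM in PBS retinas, at 81.8, 83.0 and 83.0 CPM with fluvastatin and at 84.5, 79.8 and 93.0 CPM with MBV. The treated libraries were all below PBS. Its log2 fold change was -0.57 with fluvastatin (edgeR FDR 0.000378) and -0.52 with MBV (edgeR FDR 0.00108), and between treatments 0.05 (95% interval -0.08 to 0.19). Nceh1, which hydrolyses cholesterol esters, was lower in both (-0.34, FDR 0.00831, and -0.39, FDR 0.00111, edgeR), and so was Soat1, which makes them (-0.21, FDR 0.0139, and -0.20, FDR 0.0239, edgeR).

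Other genes of this list were called higher. Scd1, a desaturase, was higher with fluvastatin (0.74, edgeR FDR 0.00417), as was the corepressor Ncor1 (0.17, edgeR FDR 0.0248). With MBV, Abca7, a lipid transporter, rose by 0.48 and Mertk, a receptor for engulfed cells, by 0.47 on the log2 scale, with edgeR FDRs of 0.000962 and 0.00246. Ncor1 was above all PBS libraries with MBV too, at 494.7 to 516.2 beside 433.7 to 460.5 CPM. So was Abca7 with fluvastatin, at 55.6 to 62.7 beside 49.2 to 51.9 CPM. Scd1 with MBV and Mertk with fluvastatin overlapped PBS. Scd1 and Mertk between the treatments had log2 fold changes of -0.76 (edgeR FDR 0.146) and 0.49 (edgeR FDR 0.167), neither of which passed.

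SREBP2 targets, the genes of cholesterol synthesis and uptake, were measured beside the members. Of 20 tested, 17 were higher with fluvastatin and none lower (edgeR FDR under 0.05), beside 12.3% of all genes tested called higher and 12.7% lower, with a median log2 fold change of 0.34. Mvd, an enzyme of the mevalonate pathway, rose by 0.79 (edgeR FDR 0.00177) and Fdft1, squalene synthase, by 0.37 (edgeR FDR 0.00178) on the log2 scale.

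With MBV against PBS, 2 of the 20 SREBP2 targets were lower and none higher, beside 17.5% of all genes tested called lower and 16.1% higher, so the count is not above the background. They were Insig1 (-0.40, edgeR FDR 0.00441) and Stard4 (-0.38, edgeR FDR 0.0239). Against fluvastatin, 4 were lower with MBV, beside 0.0266% of all genes tested, and 19 of 20 had a negative log2 fold change. Among the 4 were Insig1, which holds back SREBP2 activation (-0.83, edgeR FDR 0.00987), Fdps (-0.58, edgeR FDR 0.0458) and Fdft1 (-0.41, edgeR FDR 0.0458). The SREBP2 targets were 4 of the 5 genes called in that comparison, and the other, Usp2, is named after its value was seen. DESeq2 called 15 of the 20, while edgeR called 0 with the replicate number as a block, 1 with DESeq2 size factors and 2 with library totals. Leaving out libraries, the edgeR count was 0 without fluvastatin replicate 2, fluvastatin replicate 3 or MBV replicate 1, 1 without fluvastatin replicate 1, 2 without MBV replicate 2 and 5 without MBV replicate 3. In the last of these fits 23 genes were called in all. Against PBS the count of SREBP2 targets with MBV was 1 without PBS replicate 1 or 3.

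**Figure D3:**
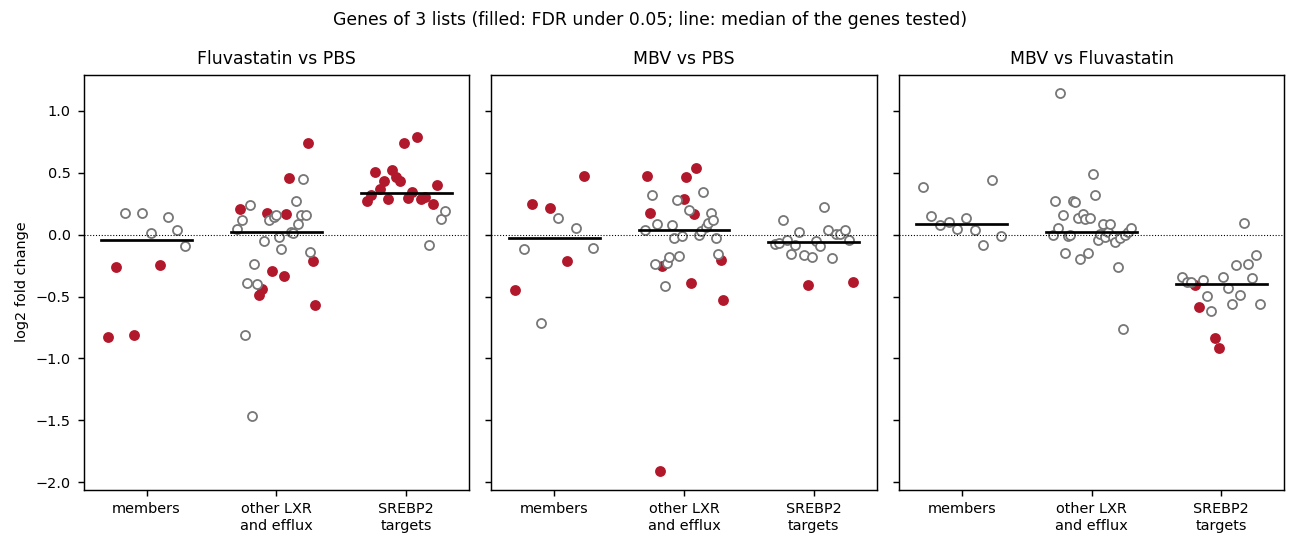
Log2 fold change of every tested gene of the members, the other LXR and efflux genes and the SREBP2 targets (1 point per gene, filled where the FDR is under 0.05), in each of the 3 comparisons, with the median of each list. The SREBP2 targets lie mostly above 0 in fluvastatin against PBS, with a median of 0.34, and mostly below 0 in MBV against fluvastatin, with a median of -0.40, while the medians of the members are -0.04, -0.03 and 0.09.

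Levels of some cell markers differed between the groups too. The summed level of 5 Müller glia markers was 3269 to 3902 CPM in PBS, 1763 to 3079 CPM with fluvastatin and 1550 to 3063 CPM with MBV. Of these markers 3 were called lower with fluvastatin and 2 with MBV, beside 12.7% and 17.5% of all genes tested. None was called between the treatments, beside 0.0332% of all genes tested. The largest part of the sum was Glul, glutamine synthetase. Glul stood at 2585, 2487 and 1909 CPM in PBS, at 2001, 1059 and 820.4 CPM with fluvastatin and at 1121, 599.0 and 1972 CPM with MBV. In the treated groups Apoe and Glul had the same order of libraries, with fluvastatin replicate 1 and MBV replicate 3 highest. Dkk3, a secreted glycoprotein, had that order too, at 607.6, 485.6 and 472.9 CPM with fluvastatin and at 544.3, 438.5 and 604.1 CPM with MBV, all below PBS (731.3 to 807.7 CPM). The other markers, Rlbp1, Slc1a3 and Kcnj10, did not have that order in either treated group. Rlbp1, the retinaldehyde-binding protein of these cells, ran from 172.6 to 184.5 CPM with fluvastatin and from 165.8 to 170.4 CPM with MBV, both below PBS (214.0 to 223.5 CPM). Abca1 was lowest in fluvastatin replicate 1, where Apoe and Glul were highest in that group. The part of these markers in the values of the members was not tested.

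**Figure D4:**
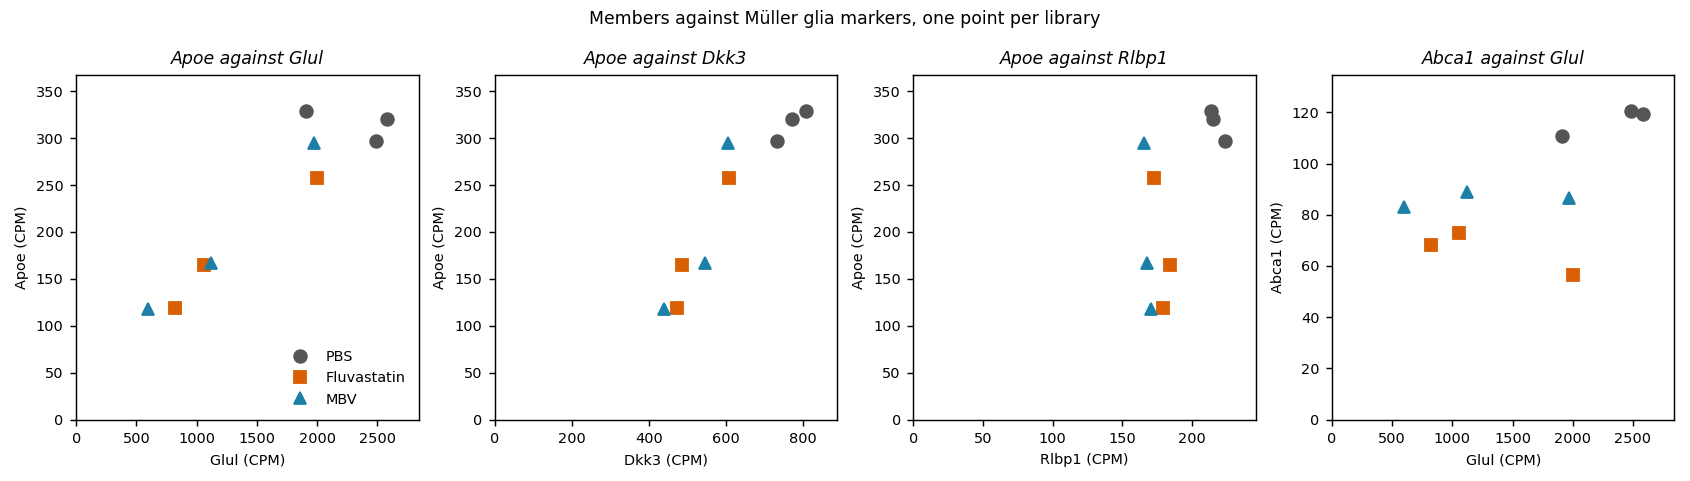
Apoe against Glul, Dkk3 and Rlbp1, and Abca1 against Glul, in CPM (all axes starting at 0), 1 point per library for PBS, fluvastatin and MBV. Within each treated group Apoe has the same order of libraries as Glul and Dkk3, while Rlbp1 is nearly level there, and the 3 groups stay apart on Abca1.

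Summed levels of 5 melanocyte markers ran from 92.3 to 142.1 CPM in PBS, from 28.8 to 39.7 CPM with fluvastatin and from 23.4 to 40.4 CPM with MBV, and all 5 were called lower in both comparisons with PBS. Monocyte and macrophage markers summed to 87.1 CPM in MBV replicate 3 but to 18.0 and 11.3 CPM in MBV replicates 1 and 2. Their sums were 10.2 to 26.4 CPM in the PBS and fluvastatin libraries. Of 4 tested, 0 were called with MBV against PBS and 1 was called lower with fluvastatin. Lens markers summed to 30.9 to 82.8 CPM with MBV beside 1.86 to 11.1 CPM elsewhere. Rod markers summed to 40793 to 44168 CPM in PBS, 36059 to 38799 CPM with fluvastatin and 27936 to 39673 CPM with MBV, with 1 and 4 of 5 called lower against PBS. Pigment epithelium markers ran from 29.7 to 40.7, from 41.1 to 86.7 and from 36.0 to 81.1 CPM in the same groups, with 2 and 1 of 5 called higher, and erythroid markers from 4.85 to 6.09, from 8.46 to 12.5 and from 9.51 to 11.9 CPM, with 1 and 2 of 3 called higher. The bipolar, amacrine, ganglion cell, astrocyte, microglia and endothelium lists had 0 to 2 markers called in each comparison with PBS. Over all genes tested, 12.7% were called lower and 12.3% higher with fluvastatin, and 17.5% and 16.1% with MBV. Of the 55 markers tested over the 13 lists, 19 were called with fluvastatin and 20 with MBV, beside 25.0% and 33.7% of all genes tested. A count of 1 in a list is not set apart from that background. Whether the levels of these markers bear on Abca1 or the other members was not tested.

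The annotation of the deposited tables is on GRCm39. Abca1 is at chr4:53030787-53159895 on the minus strand, Abcg1 at chr17:31276649-31336962 on the plus strand, Abcg4 at chr9:44184485-44199912 on the minus strand and Apoe at chr7:19430034-19433113 on the minus strand. Values are for whole genes, so no exon or isoform is told apart. In the GENCODE models, Lpcat3 exons share 4277 bases, 53.8% of their length, with Emg1 on the other strand. The counted Lpcat3 gene ends at position 124681381 and the GENCODE model at 124684440, so the share in the counted exons may differ. Since the strand setting of the counting is not given in the sources used here either, the Lpcat3 counts are uncertain. In the same GENCODE models, Nr1h3 exons share 256 bases, 5.06%, with Acp2, and Apoe exons share 521 bases, 12.9%, with a noncoding gene on the other strand.

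The promoter of Abca1, the member with the smallest FDR in both comparisons with PBS, is shown because it holds a near match to the direct repeat bound by LXRs. It was read from the GRCm39 genome upstream of the GENCODE start, at chr4:53159901-53160150 on the minus strand, with the near match in capitals.
Abca1: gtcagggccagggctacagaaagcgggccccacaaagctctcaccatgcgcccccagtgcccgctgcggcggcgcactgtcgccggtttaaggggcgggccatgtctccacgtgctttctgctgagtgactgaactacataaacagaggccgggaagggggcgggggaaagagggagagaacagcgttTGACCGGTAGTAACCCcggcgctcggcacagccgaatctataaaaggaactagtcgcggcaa
The capitals lie 62 to 47 bases before the start, and read on the opposite strand they differ by 3 letters from a direct repeat of AGGTCA with 4 bases between. Over both strands of 21573 promoters of 250 bases the exact repeat occurs in 0, and with up to 3 mismatches it occurs in 18% of promoters and in 5 of the 10 members. A match is a description of letters in the window.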

How the data were processed

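Whole retinas from 12 libraries were sequenced as total RNA. The authors deposited raw counts per gene (total counts from CLC Genomics Workbench, GRCm39 and mm39 per the labels), with annotation, fold changes and p-values of their own comparisons, which were not used. In the table that compares the combined treatment with PBS, the 6 count columns carry no library or group name and were not used, so that comparison, the main effects of each agent over all groups and the set contrast were not computed. Each of the 9 named libraries was counted once.

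Genes with more than 10 counts in at least 2 libraries of a group were tested with edgeR 4.0.16 (TMM, quasi-likelihood, 2 groups a fit) in R 4.3.3. The call was a Benjamini-Hochberg FDR under 0.05 over all genes tested, with 95% intervals from the same fit. Scripts were tested on simulated data. CPM used library totals adjusted by TMM scaling over the 9 libraries. DESeq2 1.42.0, other scalings, another filter, a fold minimum of 2, a replicate block, a fit of 9 libraries and leaving out each replicate were alternatives. Named genes were all members, Srebf1 and, per list and comparison, at most 3 called genes per direction. Some genes and a sequence that this rule or the search would name are not reported here. The members and lists were chosen with earlier results of these data known. Promoters came from GRCm39 with GENCODE starts, exon lengths and exon overlaps came from GENCODE, and the RefSeq tables were not used. The strand setting of counting is not given in the sources used here.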

Additional observations from a re-analysis of the deposited data

How the results depend on the processing

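The direction of every called member against PBS was kept under each alternative. With a fold change of at least 2 required as well, the genes called were 194 in fluvastatin against PBS, 337 in MBV against PBS and 0 in MBV against fluvastatin, with 0 members in both comparisons with PBS, 0 and 1 other LXR and efflux genes there, and 0 SREBP2 targets in all 3 comparisons. In MBV against PBS, DESeq2 and the filter of 1 count in 1 library each called 3 members. In MBV against fluvastatin the genes called were 126 with DESeq2, 1 with DESeq2 size factors, 11 with the looser filter and 16 in the fit of 9 libraries. DESeq2 also called 1 member, 3 other LXR and efflux genes and 15 SREBP2 targets there, and SREBP2 targets numbered 1 with DESeq2 size factors and 2 with library totals.

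The replicate numbers in the labels are not said to mark shared animals. Deviations of same-numbered libraries correlated from -0.36 to 0.15, and 2 of 18 matches were best with their own number. With the replicate block, 3644 genes and 4 members were called in fluvastatin against PBS, 4050 genes, 4 members and 1 SREBP2 target in MBV against PBS, and 0 genes, 0 members and 0 SREBP2 targets in MBV against fluvastatin.

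Leaving out 1 library gave 1678 to 4361 genes, 1 to 5 members, 4 to 17 other LXR and efflux genes and 16 to 18 SREBP2 targets in fluvastatin against PBS. In MBV against PBS it gave 2744 to 5629 genes, 1 to 5 members, 6 to 11 others and 1 to 2 SREBP2 targets, and in MBV against fluvastatin 0 to 23 genes, 0 to 0 members, 0 to 0 others and 0 to 5 SREBP2 targets. Alternatives planned for the combined treatment, the main effects and the set contrast were not run. For Nr1h3, 48 to 82 counts per library limit what can be told.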
